A study of Mus musculus with 9 samples.

Results

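Solute carriers are the membrane proteins, named Slc with a family number, that move nutrients, ions, metals and metabolites across the plasma membrane and the membranes of organelles. Their genes were followed here through the maturation of primary mouse megakaryocytes, the large marrow cells that release platelets. The members were the probe sets whose single gene symbol starts with Slc and a digit. The arrays carried 418 such probe sets for 261 genes, and 293 probe sets of 197 genes had a scaled signal above 46.7 (the 40th percentile of all values) on 2 or more of the 9 arrays. The other 64 genes did not reach that level. Of the 197 genes, 124 lay above it on all 9 arrays and 73 on 2 to 8. By their second-highest array, the probe sets nearest to that limit were those of Slc1a1 at 46.8 and Slc9b2 at 46.9 just inside, and of Slc23a3 at 45.2 and Slc35e4 at 44.9 just outside. Slc3a2 is a partner chain of amino acid carriers rather than a carrier, and Slc4a1ap, Slc9a3r1 and Slc9a3r2 are binding or scaffold proteins that share the name.

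Affymetrix MOE430A arrays, 9 in all, reported each transcript through a set of short probes. Marrow or fetal liver cells of mice were cultured with thrombopoietin, the cytokine that drives the lineage, and sorted on the surface integrin CD41 and on light scatter, which follows cell size. Stage MKP had 2 arrays, MK3 and MK4 had 2 each, and MK6 had 3. Days 3, 4 and 6 of culture correspond by number to MK3, MK4 and MK6, and MKP has no stated day. The array titles add only stage and replicate to the series name, so they do not show that MKP shared the culture and sort of the later stages. The labels give no strain, age, genotype or treatment beyond the culture and the sort. They do not say which tissue each array came from or whether the arrays of a stage were separate cultures, so p-values measure the spread between these arrays, which may be technical. The MK6 arrays are numbered here 1, 2 and 3 for the titles with no number, with replicate1 and with replicate2.

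The arrays differed in level and in content. Trimmed mean signals ran from 102 to 221 before scaling, and the lowest were those of MK6 replicates 1 and 3. The ratio of 3' to 5' actin probes, which climbs when RNA is shortened, lay between 0.957 and 1.09 on the 6 arrays of MKP, MK3 and MK4 and was 1.49, 1.33 and 3.21 on MK6 replicates 1, 2 and 3. All 10 megakaryocyte markers on the array passed the filter, and their summed scaled signal was 10187 and 9647 in MKP, 10152 and 22872 in MK3, 22530 and 18292 in MK4, and 20119, 19129 and 16879 in MK6. Pf4 alone gave 11328, 7265 and 9223 of the MK6 sums. From MK4 to MK6, 3 of the 10 markers had a positive difference and 7 a negative one. The median log2 difference was -0.79, and none passed the test used below. The sum of 15 macrophage markers, all above the filter, was 14228 and 11527 in MKP, 33958 and 18328 in MK3, 14766 and 21677 in MK4, and 31655, 13928 and 15630 in MK6. The sum of 13 neutrophil markers ran from 39983 to 48881 in MKP, from 35754 to 36983 in MK3 and from 25682 to 28180 in MK4. In MK6 it was 12840, 29226 and 6676 on replicates 1, 2 and 3. Erythroid markers were low, with 6 of 9 above the filter and Alas2, Rhag and Epb42 below it. The sum of 10 hepatocyte markers was 5013 and 3984 in MK3 and at most 1494 on any other array. MK3 replicate 1 thus carried MKP-like megakaryocyte marker signal and the highest macrophage marker sum.

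Megakaryocytes grow by endoreplication, build a large store of membrane and granules, and hand both to platelets. Platelets rely on glucose taken up by Slc2a3, collect serotonin from plasma through Slc6a4 and keep it with nucleotides in dense granules. Carriers often work with partners: Slc3a2 brings Slc7 amino acid carriers to the surface, and sodium-coupled carriers such as those of the Slc6 family draw on the sodium gradient that the sodium-potassium ATPase keeps.

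Between MKP and MK6 more carriers rose than fell after the arrays were scaled to a common trimmed mean. In the values as deposited 1 rose (Slc6a8) and 3 fell (Slc25a13, Slc35c2 and Slc6a13), while 56 of all genes rose and 143 fell. With a common median 7 rose and 2 fell, 8 of them among the carriers called below, while 163 of all genes rose and 230 fell. In limma's moderated test, with p adjusted over all genes by Benjamini-Hochberg and a call at 0.05, 12 of the 197 genes were higher in MK6 and 2 were lower, or 6.09% and 1.02%. Over all 9383 genes tested 2.8% were called higher and 3.03% lower. The carriers that rose were Slc6a8, Slc14a1, Slc22a23, Slc14a2, Slc44a1, Slc40a1, Slc46a1, Slc20a1, Slc52a3, Slc35b3, Slc25a25 and Slc6a9, and those that fell were Slc25a13 and Slc35a4. The 2 groups of arrays did not overlap for 66 genes that were higher in MK6 (33.5%) and 23 that were lower (11.7%), against 24.5% and 18.8% of all genes. Of the 13 neutrophil markers 8 were called lower in MK6 and 0 higher, with a median difference of -2.97. In sorted bulk samples, fewer cells of a type and less RNA per cell cannot be told apart. The calls rested on both MKP arrays: without either of them no carrier was called, and only 3 or 11 genes of all tested were. Without MK6 replicate 3, the array with the high 3' to 5' ratios, 3 carriers stayed called (Slc6a8, Slc14a2 and Slc40a1), with 68 of all genes higher and 56 lower. Without MK6 replicate 2 there were 18 higher and 4 lower, with 558 of all genes higher and 534 lower. Without MK6 replicate 1 there were 10 higher and 6 lower, with 260 of all genes higher and 323 lower. Without any single MK3 or MK4 array 8 to 12 were higher and 1 was lower.

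The successive steps held few calls. MK3 against MKP called Slc40a1 alone among the carriers, higher in MK3, where 0.0639% of all genes were called higher and 0% lower. In the values as deposited Slc40a1 was not called in this step (adjusted p = 0.059), and Slc37a2 was. Without either MKP array or MK3 replicate 2 no carrier was called in this step, and without MK6 replicate 1 there were 3 (Slc40a1, Slc11a1 and Slc37a2). Without MK6 replicate 1 this step called 73 of all genes higher and 15 lower, against 6 and 0 with all arrays. No carrier was called in MK4 against MK3 (0% of all genes higher, 0.0107% lower) or in MK6 against MK4 (0.0107% each way) by limma. In these steps 12 and 20 of the 197 carriers had an unadjusted limma p below 0.05, against 343 and 992 of the 9383 genes tested. Without MK6 replicate 2, Slc6a8 was called in the last step, with 25 of all genes higher and 95 lower. Of the 9383 genes tested the F test over the 3 steps called 268 (2.86%). Of the 197 carriers it called 4, Slc6a8, Slc40a1, Slc14a2 and Slc6a6. That count ran from 0 without MKP replicate 1 to 8 without MK6 replicate 1, and was 1 without MKP replicate 2 or MK6 replicate 3 and 2 without either MK4 array. Slc6a6 was named after its values were seen.

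**Figure D1:**
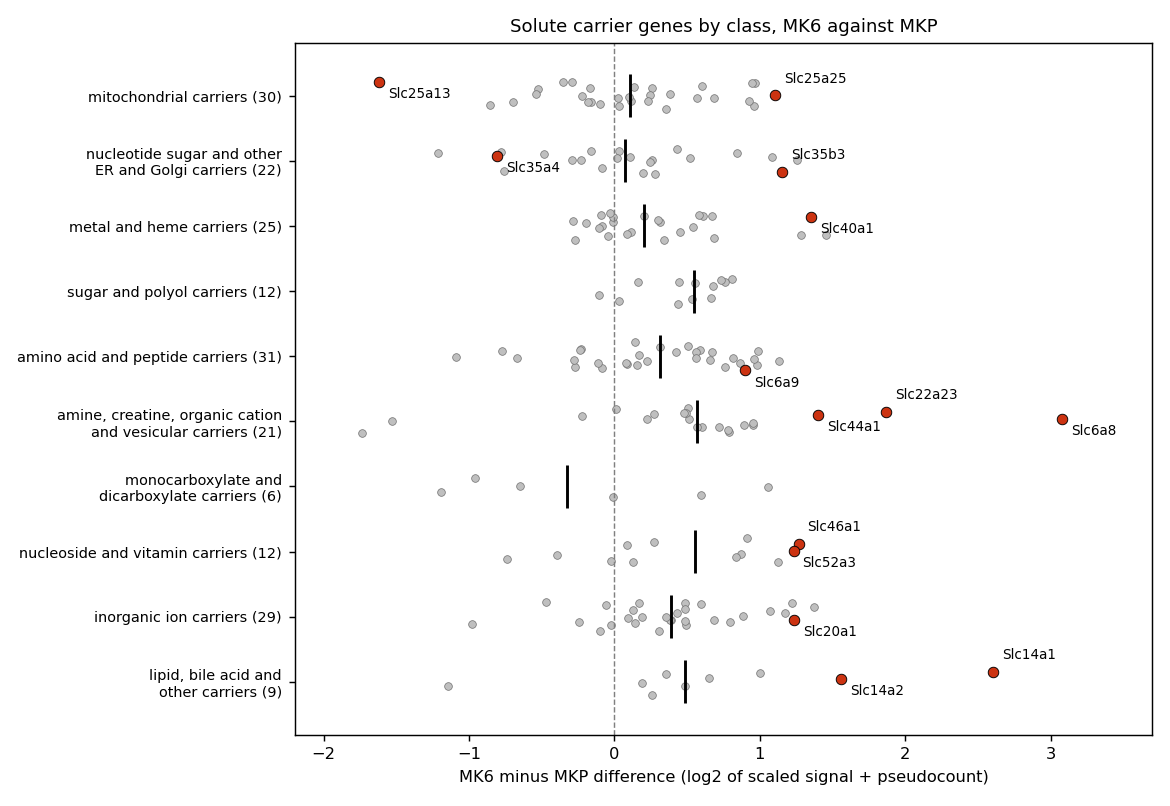
MK6 minus MKP difference on the log2(scaled signal + pseudocount) scale for each of the 197 solute carrier genes, in 10 classes by substrate or membrane, with the number of genes in parentheses. Red points are the 14 called genes, grey points the others, and black bars class medians; Slc6a8 lies farthest to the right at 3.08, and the median of the monocarboxylate and dicarboxylate class is below 0, as are those of 4 further classes in the values as deposited.

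The family's median difference was positive after scaling and slightly below 0 in the values as deposited. It lay above that of all genes under all 4 scalings. The median difference over the 197 genes was 0.31 on the log2 scale, against 0.12 over all genes tested. Of the carriers, 139 (70.6%) had a positive difference, against 59% of all genes. A gene could pass the filter on MK6 arrays alone, which favours positive differences. On MK6 replicate 1, 192 carriers lay above the filter, against 152 and 148 in MKP. With the filter required on all arrays the Slc and all-gene medians were 0.20 and 0.047, and with no filter 0.28 and 0.16. The part of the filter in the positive differences was not tested further. The shift was larger in dim genes than in bright ones, among carriers and among all genes. The carrier median lay above that of all genes in both. Among the 119 carriers with a mean scaled signal below 150 (149.86, the median of all genes tested) the median was 0.45, against 0.28 for all dim genes. Among the 78 brighter carriers it was 0.13, against -0.0028 for all bright genes. The level of dim carriers moved with single arrays: their median log2 signal was 6.98 on MK6 replicate 1 and 6.63 on replicate 3, the 2 arrays that were multiplied most in scaling (by 1.57 and 1.58), and 6.23 on MK6 replicate 2, where the factor was 0.876. It lay between 6.07 and 6.44 on the 6 earlier arrays. In the values as deposited, without scaling, the Slc median difference was -0.0178. The median of all genes moved as well, from 0.12 after scaling to -0.20 as deposited. With quantile normalization the Slc and all-gene medians were 0.29 and 0.093, and with a common median 0.19 and 0.0043. Without MK6 replicates 1 and 3 the Slc median was -0.0508, below the -0.0188 of all genes. The class and list medians given here are those after scaling. In the values as deposited they lay below 0 for the mitochondrial (-0.25), Golgi and reticulum (-0.22), amino acid (-0.14) and metal carriers (-0.078) and for the ATF4 (-0.24), iron (-0.22), creatine (-0.15) and serotonin lists (-0.23). With a common median the Golgi and reticulum (-0.092), mitochondrial (-0.011), ATF4 (-0.026) and serotonin (-0.022) medians lay below 0 as well. The amino acid, metal, iron and creatine medians then stayed above 0. Those of the sugar, ion, vitamin, amine and lipid classes and of the vacuolar ATPase stayed above 0 under all 4 scalings. The part of array level in the shift was not tested.

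**Figure D2:**
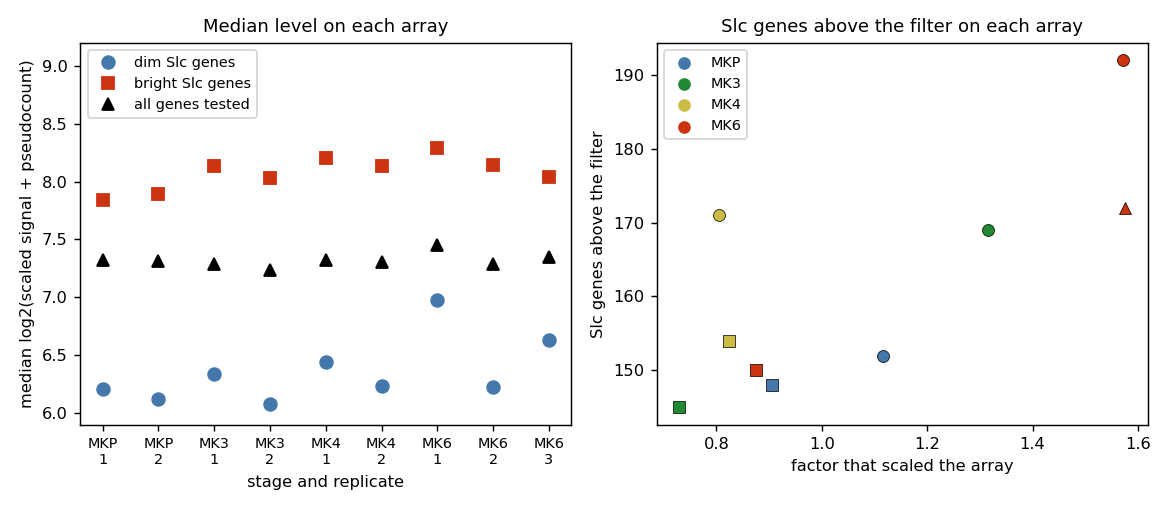
Left, the median log2(scaled signal + pseudocount) on each array for dim carriers (119 genes), bright carriers (78 genes) and all 9383 genes tested. Right, the number of the 197 carriers above the filter on each array against the factor that scaled it; circle, square and triangle are replicates 1, 2 and 3. MK6 replicate 1 has 192 carriers above the filter, and the other arrays 145 to 172.

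Slc6a8, the sodium- and chloride-coupled carrier that brings creatine into cells, rose most. Its scaled signal was 93.5 and 66.6 in MKP, 208 and 130 in MK3, 151 and 196 in MK4, and 1209, 457 and 862 in MK6. All 3 MK6 arrays lay above every earlier array, while MK3 and MK4 overlapped. The stage means of log2 signal were 6.56 ± 0.29 in MKP (SD, n = 2), 7.49 ± 0.44 in MK3 (n = 2), 7.55 ± 0.25 in MK4 (n = 2) and 9.64 ± 0.70 in MK6 (n = 3). The MK6 minus MKP difference was 3.08 ± 0.37 (SE; adjusted p = 0.0037 in limma). A second probe set gave 3.15, with an adjusted p of 0.0063 over all probe sets. Most of the difference lay after MK4: MK6 minus MK4 was 2.09 ± 0.37 (adjusted p = 0.087), and MK3 minus MKP was 0.93 ± 0.41 (adjusted p = 0.48). The call held in 12 of 12 other settings and failed only without MKP replicate 1 or 2 among the 9 settings that left out an array.

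Of the genes that make or use creatine, none of the 4 above the filter was called. Ckb, the brain-type creatine kinase, was higher in MK6 by 1.11 ± 0.29 (adjusted p = 0.053), and Gatm, which catalyses the first step of creatine synthesis, was lower, at -1.10 ± 0.33 (adjusted p = 0.081). Ckm, the muscle-type kinase, differed by 0.23 (adjusted p = 0.70). The carriers whose log2 signal followed Slc6a8 most closely over the 9 arrays were Slc66a2 (Pearson r = 0.94), Slc46a1 (0.93) and Slc14a2 (0.93). These correlations describe 9 arrays that share scaling and stage, and of these carriers Slc66a2 was not called (0.59 ± 0.24, adjusted p = 0.16).

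**Figure D3:**
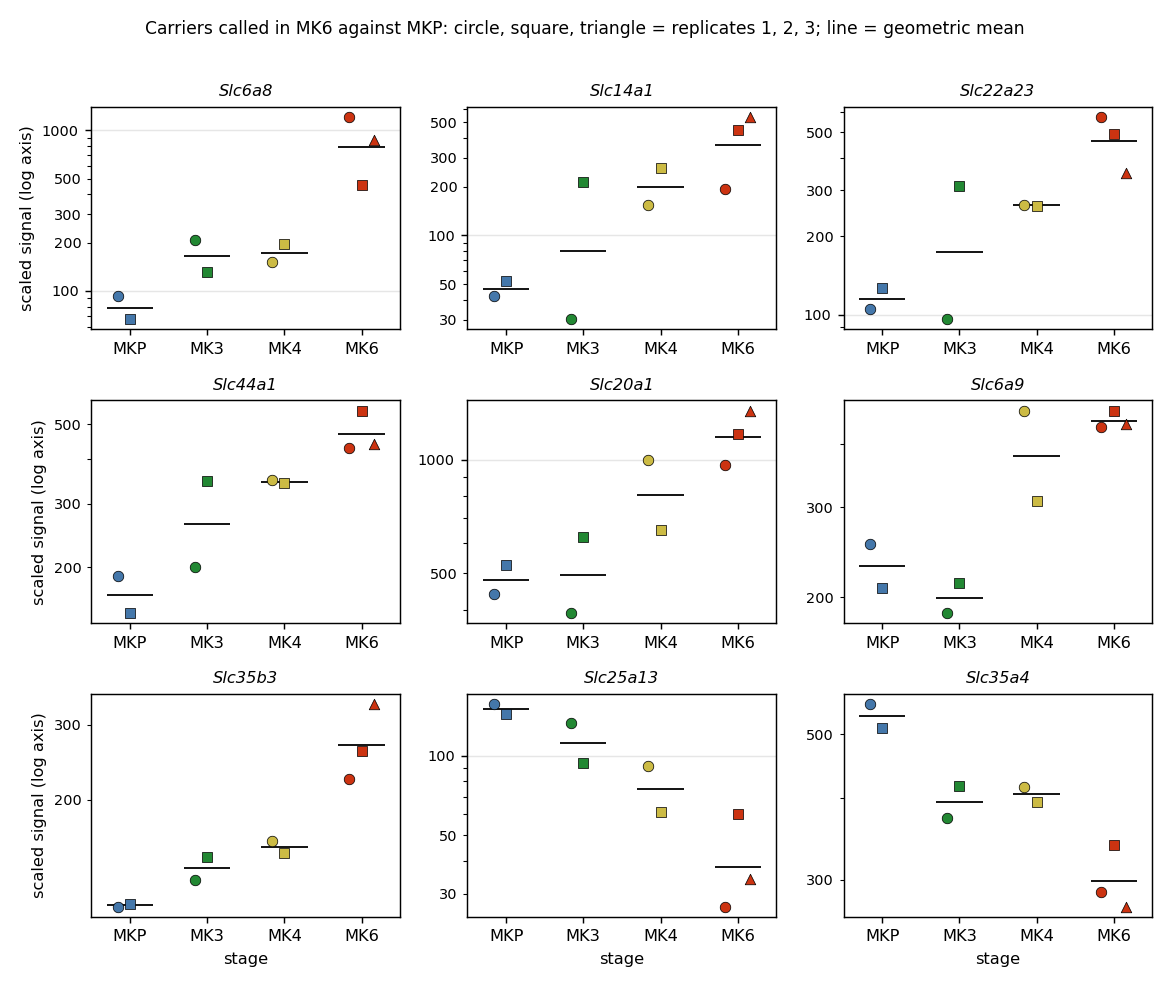
Scaled signal on a log axis, by stage, of 9 of the 14 carriers called in MK6 against MKP; each symbol is an array (circle, square and triangle for replicates 1, 2 and 3) and the line is the geometric mean of the stage. Slc14a1, Slc22a23 and Slc44a1 sit low on MK3 replicate 1 and higher on MK3 replicate 2, and Slc25a13 and Slc35a4 are lowest in MK6.

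The amine, creatine and organic cation class held 2 further rises. Slc22a23, an orphan member of the organic ion family, had signals of 105 and 127 in MKP, 96.1 and 313 in MK3, 263 and 262 in MK4, and 573, 494 and 349 in MK6, a difference of 1.87 ± 0.39 (adjusted p = 0.022). Slc44a1, a choline carrier, had 189 and 150 in MKP, 200 and 349 in MK3, 350 and 342 in MK4, and 430, 545 and 440 in MK6, a difference of 1.40 ± 0.26 (adjusted p = 0.015). Slc44a1 was not called with a common median (adjusted p = 0.068). Neither Slc22a23 nor Slc44a1 was called in the values as deposited (adjusted p = 0.19 and 0.34) or without MK6 replicate 3. In both, the MK4 and MK6 arrays lay above the MKP arrays, and MK3 replicate 2, with the higher megakaryocyte marker sum, lay above MK3 replicate 1. In this class 3 of 21 genes were called higher and 0 lower, 18 had a positive difference, and the median was 0.57.

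Slc6a4 and Slc17a9, which serve the dense granules, did not pass the test. Slc6a4, the serotonin carrier that loads platelets, had signals of 514 and 484 in MKP, 709 and 2951 in MK3, 1414 and 1612 in MK4, and 1484, 1531 and 408 in MK6. Its highest value was on MK3 replicate 2, and MK6 replicate 3 lay below both MKP arrays. The MK6 minus MKP difference was 0.95 ± 0.61 (adjusted p = 0.36), and 1.57 without MK6 replicate 3. Slc17a9, which loads nucleotides into vesicles, had 108 and 69.4 in MKP and 107, 60.5 and 103 in MK6 (difference 0.013 ± 0.312, adjusted p = 0.98). Slc18a2 and Slc35d3 were not analysed here. Of the 10 genes of serotonin metabolism and dense granules above the filter, Rab27b, a granule GTPase, rose (1.47 ± 0.36, adjusted p = 0.040) and none fell, with a median of 0.083. Rab27b was not called with a common median (adjusted p = 0.13) or in the values as deposited (adjusted p = 0.41). Maoa, which breaks serotonin down, was at 1.19 ± 0.35 (adjusted p = 0.070), and Hps1, a granule biogenesis gene, at -1.27 ± 0.43 (adjusted p = 0.11).

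The largest negative differences in this class were those of carriers for taurine and GABA. Slc6a6, the taurine carrier, had signals of 604 and 523 in MKP, 989 and 849 in MK3, 542 and 703 in MK4, and 299, 246 and 81.7 in MK6. It was high through MK4 and lower on every MK6 array. The F test called it (adjusted p = 0.046), while MK6 minus MKP was -1.53 ± 0.42 (adjusted p = 0.056). Its other 2 probe sets gave -1.81 and -1.21. Slc6a13, a GABA carrier, had 117 and 76.8 in MKP and 58.7, 7.49 and 6.45 in MK6 (difference -1.74 ± 0.59, adjusted p = 0.11), and the last 2 values lie below the filter.

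The urea carriers rose. Slc14a1, the urea carrier of red cells and of the kidney's vessels, had signals of 42.4 and 51.9 in MKP, 30.2 and 212 in MK3, 153 and 261 in MK4, and 194, 449 and 538 in MK6. The difference was 2.60 ± 0.60 (adjusted p = 0.031), and its second probe set gave 1.68 (adjusted p = 0.023 over all probe sets). The call was lost without MK6 replicate 3, and under a common median among other settings. Slc14a2, the urea carrier of the kidney tubule, was dimmer, at 63.0 and 39.6 in MKP and 246, 161 and 140 in MK6, a difference of 1.56 ± 0.31 (adjusted p = 0.019). Its second probe set gave 0.79 (adjusted p = 0.22 over all probe sets), so the probe sets disagree on the call. Both genes were counted in the class of lipid, bile acid and other carriers, where 2 of 9 were called higher and 0 lower and the median was 0.48. In that class Slc27a4, a fatty acid carrier, was at -1.15 ± 0.31 (adjusted p = 0.055), with 331 and 242 in MKP and 183, 105 and 87.6 in MK6. Slc10a1, the bile acid carrier of hepatocytes, was near the filter (43.02 and 40.4 in MKP, 84.5, 28.7 and 47.1 in MK6) and differed by 0.19 (adjusted p = 0.81).

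Slc40a1, the iron exporter ferroportin, followed another course and was highest in MK3. Its signal was 163 and 198 in MKP, 1225 and 1128 in MK3, 546 and 617 in MK4, and 457, 558 and 439 in MK6. Both MK3 arrays lay above all others, and every MK4 and MK6 array lay above MKP. The summed hepatocyte markers were also highest on both MK3 arrays (5013 and 3984), with 10 of 10 positive against MKP, 1 of them called, and a median difference of 1.98; their part in the Slc40a1 difference was not tested. The MK3 minus MKP difference was 2.61 ± 0.24 (adjusted p = 0.0022), and MK6 minus MKP was 1.35 ± 0.22 (adjusted p = 0.0094); both use the same MKP arrays. Neither was called in the values as deposited (adjusted p = 0.059 and 0.36). MK4 minus MK3 was -0.999 ± 0.236 (adjusted p = 0.78). The second probe set had 328 and 297 in MKP and 1224 and 675 in MK3, and gave 1.497 for MK3 (adjusted p = 0.15 over all probe sets) and 0.47 for MK6 (adjusted p = 0.39). Without MK3 replicate 2 that probe set has the higher mean, stands for the gene, and the calls are lost.

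Macrophages recycle iron and digest particles in lysosomes, and 3 carriers known from such cells are described next. Slc11a1, which moves metal ions out of the phagosome, had 225 and 226 in MKP, 972 and 576 in MK3, 380 and 711 in MK4, and 1134, 421 and 385 in MK6. Slc37a2, a sugar phosphate carrier, had 65.99 and 79.4 in MKP, 566 and 366 in MK3, 166 and 349 in MK4, and 367, 125 and 155 in MK6. Slc15a3, a lysosomal carrier of histidine and peptides, had 173 and 177 in MKP, 755 and 318 in MK3, 230 and 667 in MK4, and 745, 281 and 309 in MK6. In each, MK3 replicate 1, MK4 replicate 2 and MK6 replicate 1 were the highest arrays of their stage, which are also the arrays with the highest macrophage marker sum of their stage. Slc40a1 did not follow that order in MK6, where replicate 2 was its highest array. None of the 3 was called: MK6 minus MKP was 1.28 ± 0.44 for Slc11a1 (adjusted p = 0.11), 1.25 ± 0.43 for Slc37a2 (adjusted p = 0.11) and 1.13 ± 0.51 for Slc15a3 (adjusted p = 0.21). MK3 minus MKP was 2.43 ± 0.47 for Slc37a2 (adjusted p = 0.086); this step was called for Slc37a2 with a common median, in the values as deposited, with the arrays of these stages only, without MK6 replicate 1, and without MK6 replicates 1 and 3.

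Slc29a3, a lysosomal nucleoside carrier, was at 510 on MK3 replicate 1 and at 153 to 301 on the other arrays, with an MK6 minus MKP difference of -0.025 (adjusted p = 0.97). Slc48a1, which carries heme out of lysosomes, was at 1204 on MK3 replicate 1 and 774 on MK3 replicate 2 against 556 and 411 in MKP; MK6 minus MKP was 0.34 ± 0.27 (adjusted p = 0.46), and 0.98 by its second probe set (adjusted p = 0.036 over all probe sets). Of the 15 macrophage markers, 3 were called higher in MK6 than in MKP and 2 lower, and 1 (Mrc1, at 3.06) was called higher in MK3. In MK6 against MKP 7 of their differences were positive and 8 negative, with a median of -0.47. Lyz2 and Ctss gave 12479 and 7658 of the sum on MK6 replicate 1. Within MK6, C1qa, C1qb and C1qc were highest on replicate 2, and most other markers, such as Csf1r and Adgre1, on replicate 1. The part of the macrophage markers in the carriers' differences, that of Slc40a1 included, was not tested.

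**Figure D4:**
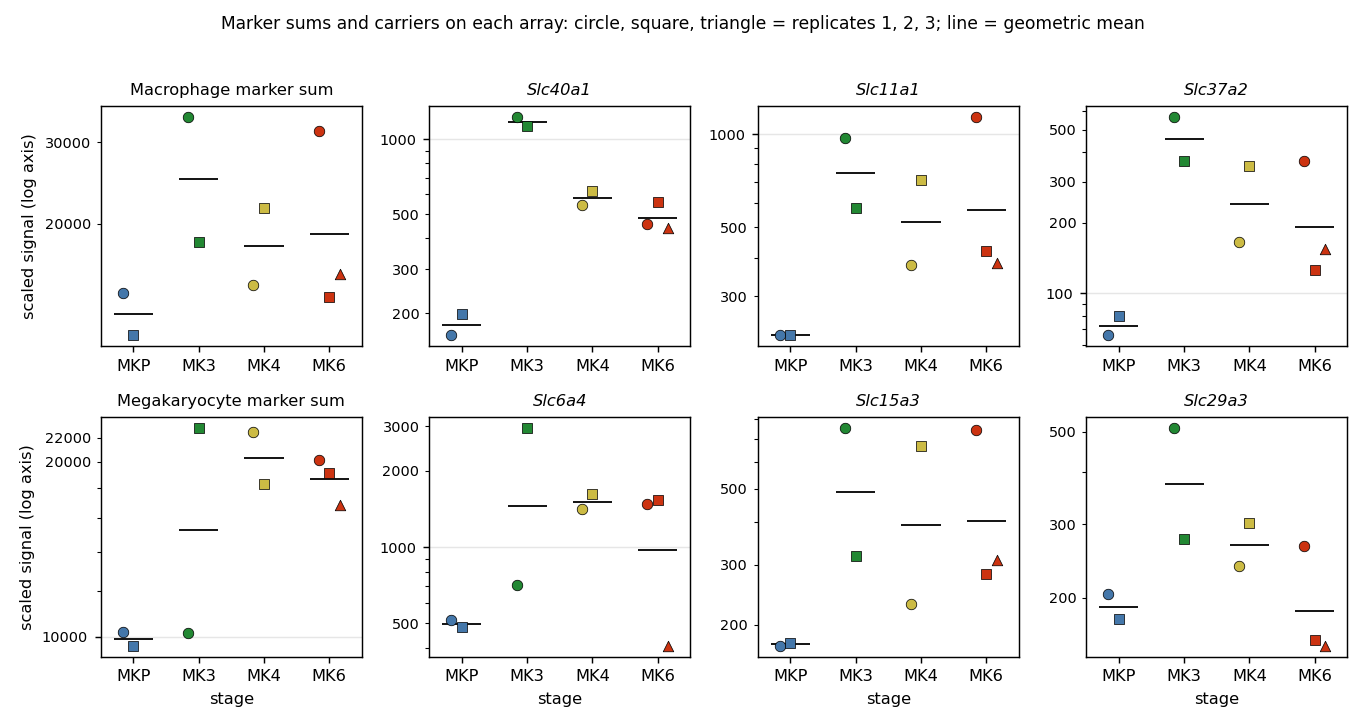
Scaled signal on a log axis, by stage, of the summed macrophage markers (15 genes) and megakaryocyte markers (10 genes) and of 6 carriers; each symbol is an array and the line the geometric mean. MK3 replicate 1 and MK6 replicate 1 are high in the macrophage sum, in Slc11a1 and in Slc15a3, and Slc6a4 is highest on MK3 replicate 2, which has the highest megakaryocyte sum.

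Of 25 metal and heme carriers, 1 was called higher in MK6 (Slc40a1) and 0 lower, with a median of 0.20. Slc11a2, which takes up iron and other divalent metals, differed by -0.01 ± 0.32 (adjusted p = 0.99), and Slc25a37, which brings iron into mitochondria, by 0.13 ± 0.33 (adjusted p = 0.83). Among 11 other genes of iron handling, Hmox1, which breaks heme down, rose by 1.78 ± 0.35 (adjusted p = 0.018), and Cp, a copper oxidase that works with ferroportin, fell by 1.56 (adjusted p = 0.024). Hmox1 was not called in the values as deposited (adjusted p = 0.145). Steap3, a ferric reductase, was at -1.39 ± 0.62 (adjusted p = 0.20).

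Slc30a1 exports zinc, and its gene is a textbook target of the metal-responsive factor Mtf1, which also drives the metallothioneins. Its signal was 15.7 and 65.4 in MKP, 71.8 and 142 in MK3, 135 and 160 in MK4, and 127, 119 and 118 in MK6. MKP replicate 1 was the only array far below the others and below the filter. MK6 minus MKP was 1.46 ± 0.39 (adjusted p = 0.055), and 0.76 without MKP replicate 1. The metallothioneins Mt2 and Mt1, small zinc-binding proteins, rose by 1.54 ± 0.34 (adjusted p = 0.029) and 1.41 ± 0.29 (adjusted p = 0.020), and Mtf1 itself differed by 0.14 (adjusted p = 0.72). With a common median neither Mt1 nor Mt2 was called (adjusted p = 0.056 and 0.055). The summed signal of these 3 genes was 1479 and 1136 in MKP, 1370 to 1896 in MK3 and MK4, and 3195, 2375 and 4788 in MK6. The promoter of Slc30a1 is shown because the family's zinc exporter and the metallothioneins share this known regulator. In the RefSeq window from 250 bases before to 50 after the transcript start (GRCm38.p6, chr1:191906531-191906830, plus strand), capitals mark the matches of the metal response element core TGCNCNC, searched on both strands; here both lie on the reverse strand, and neither overlaps another motif searched.
Slc30a1: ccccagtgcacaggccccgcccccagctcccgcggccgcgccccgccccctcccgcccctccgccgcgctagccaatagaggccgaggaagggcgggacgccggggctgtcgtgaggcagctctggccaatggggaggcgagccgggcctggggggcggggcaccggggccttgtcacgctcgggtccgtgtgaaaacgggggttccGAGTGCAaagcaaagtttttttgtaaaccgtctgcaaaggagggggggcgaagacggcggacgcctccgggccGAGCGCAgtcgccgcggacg
The letters TGCNCNC are common, being found in 50.4% of 27025 mouse promoter windows and in 58.5% of the 147 carriers above the filter that have a window.

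The inorganic ion class held 1 call among 29 genes, with a median of 0.39. Slc20a1, a sodium-coupled phosphate carrier that also serves as a retrovirus receptor, had 440 and 526 in MKP, 392 and 624 in MK3, 1000 and 650 in MK4, and 967, 1173 and 1351 in MK6. All MK6 arrays lay above MKP, and the difference was 1.24 ± 0.28 (adjusted p = 0.031). Its second probe set went the other way, at -0.55 (adjusted p = 0.30 over all probe sets), and the mean of both gave no call. The call was also lost with a common median (adjusted p = 0.12), in the values as deposited (adjusted p = 0.49) and without MK6 replicate 3. Slc26a5, known as prestin of the inner ear, and Slc26a7, an anion exchanger, were not called, at 1.37 ± 0.48 (adjusted p = 0.12) and 1.22 ± 0.67 (adjusted p = 0.28), with signals below 80 on every array. Slc4a1, the anion exchanger band 3 of red cells, lay between 4.72 and 58.6 and differed by -0.98 ± 0.61 (adjusted p = 0.34). The sodium-potassium ATPase, whose gradient many of these carriers use, had 3 subunits above the filter and no call. Its members Atp1b1, Atp1b2 and Atp1b3 differed by -0.61, 0.30 and -0.13.

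Mitochondrial carriers gave 1 rise and 1 fall among 30 genes and a median of 0.11. Slc25a13, which trades aspartate for glutamate in the malate-aspartate shuttle, had 157 and 144 in MKP, 133 and 93.7 in MK3, 91.4 and 61.4 in MK4, and 26.8, 60.4 and 34.1 in MK6. MKP lay above all later arrays, and the difference was -1.62 ± 0.32 (adjusted p = 0.019). Within MK6 the Slc25a13 signal was highest on replicate 2, as was the neutrophil marker sum. The part of those cells was not tested. Slc25a25, a carrier of ATP-magnesium and phosphate, rose from 42.1 and 52.8 to 145, 104 and 110, by 1.10 ± 0.27 (adjusted p = 0.039). Its value on MKP replicate 1 lies below the filter. The Slc25a25 call was lost without MK6 replicate 1 or 3, as without several other arrays. It was also lost with no filter and in the values as deposited (adjusted p = 0.33 in limma). Slc25a3, the phosphate carrier of ATP synthesis, was at 2784 to 4640 on every array and differed by 0.029 ± 0.279 (adjusted p = 0.96). Slc25a47, a carrier known from liver, was at 0.97 ± 0.33 (adjusted p = 0.11).

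The E-box CACGTG, the site of Myc and related transcription factors, is known from promoters of metabolic carriers, and 9.5% of the 147 carrier windows held it against 7.2% of all 27025. Of the carriers described here, Slc20a1, Slc25a13 and Slc16a1, a lactate carrier, are shown because they hold it and yet did not go the same way: Slc20a1 rose, Slc25a13 fell, and Slc16a1 was at -1.20 ± 0.41 (adjusted p = 0.11). Capitals mark each match; the motif reads the same on both strands, and the match of Slc25a13 overlaps a match of TGANTCA, the NF-E2 and AP-1 core. The RefSeq windows (GRCm38.p6) are chr2:129198523-129198822 on the plus strand for Slc20a1, chr6:6217124-6217423 on the minus strand for Slc25a13 and chr3:104638414-104638713 on the plus strand for Slc16a1.
Slc20a1: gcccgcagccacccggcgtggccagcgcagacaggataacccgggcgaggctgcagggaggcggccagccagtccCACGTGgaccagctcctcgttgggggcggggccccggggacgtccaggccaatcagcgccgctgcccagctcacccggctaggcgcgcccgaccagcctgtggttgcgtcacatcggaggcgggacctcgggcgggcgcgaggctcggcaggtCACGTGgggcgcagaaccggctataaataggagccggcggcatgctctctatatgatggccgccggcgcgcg
Slc25a13: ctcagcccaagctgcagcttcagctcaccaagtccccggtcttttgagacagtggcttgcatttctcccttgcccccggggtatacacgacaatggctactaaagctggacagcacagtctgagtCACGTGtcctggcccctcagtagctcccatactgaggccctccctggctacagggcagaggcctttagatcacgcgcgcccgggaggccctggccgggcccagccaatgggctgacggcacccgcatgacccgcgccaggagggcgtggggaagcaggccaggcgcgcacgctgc
Slc16a1: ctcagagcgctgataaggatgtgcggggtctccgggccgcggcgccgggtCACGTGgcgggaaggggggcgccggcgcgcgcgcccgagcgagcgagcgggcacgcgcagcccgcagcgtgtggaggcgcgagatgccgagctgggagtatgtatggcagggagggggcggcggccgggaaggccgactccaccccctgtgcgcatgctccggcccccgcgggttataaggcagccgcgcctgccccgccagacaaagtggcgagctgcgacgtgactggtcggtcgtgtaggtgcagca
The first window holds 2 matches and the others 1 each. The remaining motifs searched on both strands were as common in carrier windows or less so: AGATAA, the GATA core, in 7.5% against 11.4% of all windows, TGANTCA in 6.1% against 7.9%, and TGATGNAA, the core of the amino acid response element, in 2.0% against 4.1%.

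Sugar carriers gave no call among 12 genes, although 11 had a positive difference and the median was 0.54. Slc2a3, the main glucose carrier of platelets, had 3390 and 3215 in MKP, 3197 and 4846 in MK3, 5232 and 4308 in MK4, and 5533, 5232 and 6109 in MK6 on the probe set with the highest mean. The MK6 and MKP arrays did not overlap, and the difference was 0.76 ± 0.27 (adjusted p = 0.12). Its 4 probe sets split into pairs. A second one gave 0.81, while the other two gave -2.44 (adjusted p = 0.049 over all probe sets) and -1.74 (adjusted p = 0.060). On these the signal was 423 and 477, and 249 and 271, in MKP, and 152, 129 and 10.6, and 153, 69.8 and 23.9, in MK6. The lowest value of both was on MK6 replicate 3, the array with the highest 3' to 5' ratios, and the part of RNA length in the split was not tested. The mean of the 4 probe sets gave -0.65 for the gene, so its direction rests on the probe set.

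**Figure D5:**
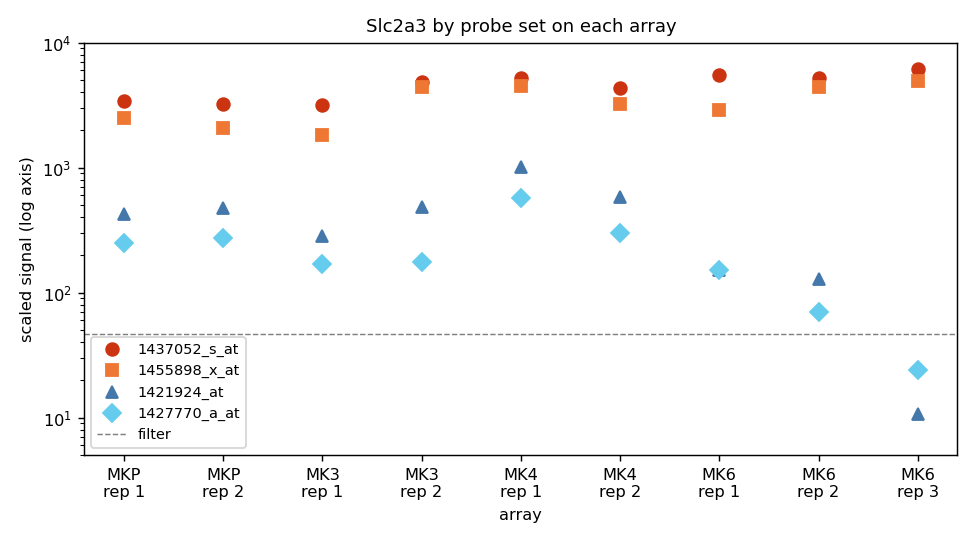
Scaled signal of the 4 probe sets of Slc2a3 on each array, on a log axis, with the filter as a dashed line. The upper pair is higher on all MK6 arrays than in MKP (5533, 5232 and 6109 for the brighter one), while the lower pair falls to 10.6 and 23.9 on MK6 replicate 3.

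Slc2a1, the widespread glucose carrier, stayed between 214 and 414 on all arrays and differed by 0.16 ± 0.27 (adjusted p = 0.73). Slc2a10 and Slc45a2, the latter known from pigment granules, were at 0.81 ± 0.40 (adjusted p = 0.24) and 0.73 ± 0.27 (adjusted p = 0.13). Of 14 genes of glycolysis, the pathway that uses the sugar, none rose and 2 fell: Pfkl, a phosphofructokinase, by 1.82 (adjusted p = 0.011), and Tpi1, triose phosphate isomerase, by 0.96 (adjusted p = 0.048). With a common median 1 fell, and in the values as deposited none did. The list's median was -0.29. The lactate carriers, which export its product, were not called. Slc16a1 had 444 and 463 in MKP and 97.7, 310 and 218 in MK6. Slc16a3 had 594 and 534 in MKP and 367, 374 and 162 in MK6 (-0.96 ± 0.35, adjusted p = 0.13), and every MK6 array lay below MKP in both. Slc16a4, of unknown substrate, was at 1.05 ± 0.38 (adjusted p = 0.13). The class median over 6 genes was -0.33. Among the partner proteins of carriers, Bsg and Emb, which bring lactate carriers to the surface, were at -0.69 ± 0.27 (adjusted p = 0.15) and -1.36 ± 0.42 (adjusted p = 0.086), Nptn was at 0.51, and none of the 4 was called.

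Amino acid and peptide carriers gave 1 rise among 31 genes and a median of 0.31. Slc6a9, a glycine carrier, had 254 and 209 in MKP, 186 and 213 in MK3, 465 and 309 in MK4, and 431, 463 and 436 in MK6. The MK4 and MK6 arrays lay above MKP and MK3. The difference was 0.90 ± 0.23 (adjusted p = 0.048), close to the threshold, and no setting that left out an array kept the call. Slc7a5, the large neutral amino acid carrier, had 801 and 584 in MKP, 214 and 495 in MK3, 597 and 630 in MK4, and 120, 467 and 531 in MK6. It was lowest on MK3 replicate 1 and MK6 replicate 1, the arrays with the highest macrophage marker sums, and the difference was -1.09 ± 0.53 (adjusted p = 0.24; -0.45 without MK6 replicate 1). Its partner chain Slc3a2 had 1730 and 1429 in MKP and 2705, 2318 and 2528 in MK6 (0.67 ± 0.22, adjusted p = 0.10). Slc7a9, a cystine carrier of the kidney, was at 0.99 ± 0.41 (adjusted p = 0.18).

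Cells short of amino acids raise carriers and synthesis enzymes through the factor ATF4. Of 28 ATF4 target genes above the filter, 4 rose and 1 fell between MKP and MK6, with a median of 0.079. The largest were Vldlr, a lipoprotein receptor, at 2.63 ± 0.44 (adjusted p = 0.011), Atf3, a stress-induced factor, at 2.20 ± 0.44 (adjusted p = 0.019), and Ddit3, which encodes the stress factor CHOP, at 1.47 ± 0.25 (adjusted p = 0.011). Phgdh, the first enzyme of serine synthesis, fell by 1.09 (adjusted p = 0.039). With a common median 3 rose and 0 fell, and in the values as deposited 1 rose and 0 fell.

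Vitamin carriers supplied 2 rises among 12 genes of the nucleoside and vitamin class, whose median was 0.55. Slc46a1, the proton-coupled folate carrier, had 33.1 and 38.9 in MKP, 55.1 and 55.2 in MK3, 67.8 and 43.6 in MK4, and 153, 79.5 and 102 in MK6 (1.27 ± 0.32, adjusted p = 0.045). Slc52a3, a riboflavin carrier, had 71.5 and 97.5 in MKP, 138 and 86.4 in MK3, 138 and 93.1 in MK4, and 290, 183 and 191 in MK6 (1.23 ± 0.30, adjusted p = 0.040). Both were highest on MK6 replicate 1 and lost the call without it, as without several other arrays. Slc19a2, a thiamine carrier, was at 1.13 ± 0.37 (adjusted p = 0.10) by a probe set that gave 128, 273 and 307 in MK6 against 102 and 85.2 in MKP, and at -0.40 by the other.

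Carriers of the endoplasmic reticulum and Golgi, which feed glycosylation and sulfation, gave 1 rise and 1 fall among 22 genes and a median of 0.069. Slc35b3, which brings the sulfate donor PAPS into the Golgi, had 112 and 114 in MKP, 130 and 147 in MK3, 160 and 150 in MK4, and 224, 260 and 335 in MK6. No arrays of successive stages overlapped, and the MK6 minus MKP difference was 1.15 ± 0.23 (adjusted p = 0.020). The call was lost with a common median (adjusted p = 0.0685), in the values as deposited (adjusted p = 0.37) and without MK6 replicate 3. Slc35a4, a nucleotide sugar carrier relative, had 556 and 512 in MKP, 372 and 416 in MK3, 416 and 395 in MK4, and 288, 339 and 273 in MK6. MK6 replicate 2, its highest array of that stage, also had the highest neutrophil marker sum in MK6, whose part was not tested. The difference was -0.81 ± 0.21 (adjusted p = 0.047), and -0.33 by its second probe set (adjusted p = 0.38 over all probe sets). Of the 9 settings that left out an array only the one without MK6 replicate 2 kept the call, and it was lost with the mean of probe sets, without a variance trend, and under each other scaling. Slc35c2, a relative of the GDP-fucose carriers, was at -1.21 ± 0.41 (adjusted p = 0.11), and Slc35b1, which brings ATP into the reticulum, was at -0.086 ± 0.252 (adjusted p = 0.86).

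Pumps work beside the carriers. Of 29 ABC transporters above the filter, which use ATP directly, 3 rose and 1 fell, with a median of 0.45; in the values as deposited none rose and 1 fell, which was Abcd2. Abca1, the cholesterol exporter, rose by 2.10 ± 0.42 (adjusted p = 0.019), Abca2, a lipid pump of lysosomes, fell by 1.65 (adjusted p = 0.047), and Abcd2, a peroxisomal fatty acid pump, was at -1.82 ± 0.49 (adjusted p = 0.054). The vacuolar proton ATPase acidifies lysosomes and granules and powers proton-coupled carriers there. Of its 16 genes above the filter, 2 rose and none fell, with a median of 0.50 and 16 positive differences; with a common median 1 rose, and in the values as deposited none did. Atp6v1c1 was at 1.55 ± 0.32 (adjusted p = 0.021), Atp6v0e2 at 1.22 ± 0.37 (adjusted p = 0.078) and Atp6v1e1 at 0.97 ± 0.26 (adjusted p = 0.056). Its summed signal was 7682 and 7516 in MKP, 12797 and 10211 in MK3, 8382 and 9637 in MK4, and 13916, 10289 and 11575 in MK6, highest in MK3 and MK6 on the arrays with the highest macrophage marker sums, and the part of those cells was not tested.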

How the data were processed

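The values are probe set intensities on a linear scale, deposited by the authors for 9 single-colour arrays; MAS5 produced them, per the submitters' processing notes, with version and settings not given in the sources used here. Of 22690 probe sets, 64 were controls; 20380 had 1 gene symbol in the platform annotation, 691 several and 1555 none, and 20351 were found in the RefSeq gene table, which gave current symbols. Each array was multiplied to a common trimmed mean of 161 (2% off each end). Values were taken as log2(scaled signal + 15.2), the pseudocount being the 20th percentile, which understates changes of dim genes. Probe sets above 46.7 (40th percentile) on 2 or more arrays were kept, and the one with the highest mean stood for a gene, giving 9383 genes for testing of 12368. Values of a second probe set come from a fit to all 14499 probe sets kept.

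All 9 arrays entered 1 limma 3.58.1 fit in R 4.3.3 (a mean per stage, eBayes with trend, 5 residual degrees of freedom). The fit was also run on simulated data with independent noise per gene. These held no effects shared by the genes of an array, so they cannot show how the fit treats such effects. Calls are at a Benjamini-Hochberg adjusted p below 0.05. Errors are standard errors unless an SD is named. The number of arrays limits precision. Named are called carriers, the 3 largest differences and the highest mean of each class, a list of carriers of this lineage, the 3 largest of each pathway list, and the 3 carriers most like Slc6a8. Members, classes and lists were chosen with earlier results of these data known. A carrier excluded by the selection rule is not reported here. Alternatives varied the pseudocount, filter, scaling, probe set choice, variance model and arrays; the class and list medians under other scalings were added after the values were seen.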

Additional observations from a re-analysis of the deposited data

How the results depend on the processing

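Most counts depended on which arrays were included. Counts over all genes moved too, from 263 higher and 284 lower in MK6 against MKP to 558 and 534 without MK6 replicate 2. In MK3 against MKP they moved from 6 higher and 0 lower to 73 and 15 without MK6 replicate 1. Leaving out 1 array at a time, carriers called higher in MK6 than in MKP ranged from 0 to 18 (main 12), those called lower from 0 to 6 (main 2), those called in MK3 against MKP from 0 to 3 (main 1), those called by the F test from 0 to 8 (main 4), and those called in MK6 against MK4 from 0 to 1 (Slc6a8, without MK6 replicate 2); the median Slc difference ranged from 0.11 to 0.49. The values at 0 came without an MKP array in the first 2 counts (for lower calls also without MK6 replicate 3), without MKP replicate 1 or 2 or MK3 replicate 2 for MK3 against MKP, and without MKP replicate 1 for the F test. Without MK6 replicates 1 and 3 together, a setting chosen after seeing the data, 2 carriers were higher (Slc6a8 and Slc40a1), 0 lower, 3 were called in MK3 against MKP and 1 by the F test, and the median was -0.0508.

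Scaling mattered as well. With values as deposited, 1 carrier was higher and 3 lower, against 12 and 2. Of all genes 56 were higher and 143 lower, against 263 and 284. The Slc median was -0.0178, and the median of all genes moved from 0.12 to -0.20. With a common median, 7 were higher and 2 lower, and the median of all genes was 0.0043. In MK3 against MKP 2 carriers were then called, with 34 of all genes higher and 1 lower. Quantile normalization and eBayes without trend each left 1 lower call and 2 F calls. A pseudocount of 1, no filter and a filter on all arrays each left 2 F calls. Every probe set on its own gave 5 lower. With the arrays of the compared stages only, 1 was lower and 4 were called in MK3 against MKP, where 144 of all genes were higher and 30 lower. The cause was not tested. The direction of each carrier called in MK6 against MKP stayed the same in the settings run for the gene, but the second probe set of Slc20a1 lay at -0.55 when fitted on its own. No paired analysis was possible because only MK6 carries replicate numbers. Signal near the filter limits what the dim carriers can show.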
